A study of Mus musculus with 4 samples.

Results

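The mitotic genes described here are 40 genes whose products carry a cell through chromosome segregation and division: Mki67, Top2a, Birc5, Ccnb1, Ccnb2, Ccna2, Cdk1, Cdc20, Aurka, Aurkb, Plk1, Bub1, Bub1b, Bub3, Cenpa, Cenpe, Cenpf, Tpx2, Nusap1, Kif11, Kif20a, Kif23, Kif2c, Ube2c, Hmgb2, Hmmr, Ckap2, Ckap2l, Tacc3, Anln, Ect2, Cks2, Cks1b, Cdca3, Cdca8, Ndc80, Nuf2, Ttk, Gtse1 and Stmn1. They were listed by symbol, with earlier results of these data known, and all 40 were found among the 33696 genes of both gene expression matrices. The thymocytes are labelled CD4+CCR7+ and were sorted for CCR7, which maturing thymocytes carry as a chemokine receptor, and the stated purpose was to learn how the DNA sensor cGAS affects transcription in them. The WT library came from Cd4Cre mice and the Cgas KO library from Cd4Cre mice that also carried Cgasfl/fl, so both groups carry the Cre transgene, whose Cd4 promoter acts from the CD4 CD8 double-positive stage onwards. There was 1 gene expression library and 1 T cell receptor library per genotype. How many mice made up a library, and their age and sex, the labels do not give.

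In a dividing cell, cyclin A and cyclin B bind the kinase Cdk1 and drive entry into mitosis, Aurora and Polo-like kinases build the spindle, and checkpoint kinases hold back the ubiquitin ligase APC until every kinetochore is attached. Cdc20 and Ube2c then help that ligase to destroy the cyclins, and the central spindle proteins Kif20a, Kif23, Ect2 and Anln complete cytokinesis. Most of these genes are transcribed late in the cell cycle, through promoter elements read by the DREAM and MMB complexes. In the thymus the main wave of division lies before the double-positive stage, and double-positive and single-positive thymocytes are mostly at rest.

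The promoters are shown because late cell-cycle genes are known for these elements. The RefSeq table (GRCm38.p6) held a window of 300 bases, from 250 bases before to 50 bases after the start, for 35 of the 40 members; Ccna2, Aurkb, Tpx2, Kif20a and Stmn1 had none. The letters searched on both strands included CCAAT, the box bound by NF-Y, and TTTGAA or TTTAAA, forms of the cell-cycle homology element. Also searched were TTTGGCGC, TTTCCCGC, TTTCGCGC and TTTGCCGC, which were found in 1 of 35 windows (2.86%) against 2.605% of all genes. CCAAT was found in 28 of the 35 windows (80%) against 41.1% of all 27025 genes in the table. TTTGAA or TTTAAA was found in 30 of 35 (85.7%) against 30.6% of all genes. Both kinds stood in 26 of 35 (74.3%) against 12.2%, and 21 of 35 (60%) against 2.98% had TTTGAA or TTTAAA starting 15 to 60 bases after the start of a CCAAT. This spacing was chosen after the windows of the members had been seen. Nusap1, Tacc3 and Nuf2 had neither kind, and Birc5 and Kif2c, among the members that followed the others most (below), had no CCAAT. The 120 bases directly before the start are printed on the strand of the gene, with every CCAAT box and every homology element, or their reverse, in capitals. Ube2c, Ccnb1 and Cdc20 were chosen as members that were higher late in the sequence of barcodes described below. Cdk1 and Top2a were taken as further members, Hmgb2 as the member with the most UMIs, Kif11 for its genotype ratio, and Bub3 as the member that followed the others least.
Ube2c: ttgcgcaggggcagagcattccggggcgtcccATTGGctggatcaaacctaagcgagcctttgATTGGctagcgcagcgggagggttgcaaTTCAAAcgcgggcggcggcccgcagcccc
Ccnb1: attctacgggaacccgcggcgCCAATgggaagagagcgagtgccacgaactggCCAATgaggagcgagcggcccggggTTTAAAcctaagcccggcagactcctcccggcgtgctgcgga
Cdc20: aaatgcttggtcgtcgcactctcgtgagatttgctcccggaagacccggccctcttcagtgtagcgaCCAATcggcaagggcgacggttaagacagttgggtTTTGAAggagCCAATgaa
Cdk1: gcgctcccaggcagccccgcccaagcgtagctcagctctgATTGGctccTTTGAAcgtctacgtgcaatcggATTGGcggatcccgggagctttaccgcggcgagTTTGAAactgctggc
Top2a: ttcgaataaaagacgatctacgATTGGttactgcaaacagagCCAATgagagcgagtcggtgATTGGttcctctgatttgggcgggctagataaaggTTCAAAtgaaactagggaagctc
Hmgb2: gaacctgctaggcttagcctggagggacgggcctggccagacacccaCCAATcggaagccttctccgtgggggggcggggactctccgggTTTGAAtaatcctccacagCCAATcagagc
Kif11: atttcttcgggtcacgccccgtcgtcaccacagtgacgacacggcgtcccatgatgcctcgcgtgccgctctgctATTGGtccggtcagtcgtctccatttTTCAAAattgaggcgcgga
Bub3: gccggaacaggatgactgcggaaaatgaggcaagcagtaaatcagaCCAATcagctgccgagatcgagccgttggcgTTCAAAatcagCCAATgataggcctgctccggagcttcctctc
These stretches lie at chr2:164769809-164769928 on the plus strand for Ube2c, chr13:100786487-100786606 on the minus strand for Ccnb1, chr4:118437344-118437463 on the minus strand for Cdc20 and chr10:69352913-69353032 on the minus strand for Cdk1. Those of Top2a (chr11:99024190-99024309, minus), Hmgb2 (chr8:57511723-57511842, plus), Kif11 (chr19:37376262-37376381, plus) and Bub3 (chr7:131560250-131560369, plus) follow. In Ube2c the reverse of CCAAT starts at -88 and -57 and the reverse of TTTGAA at -29, counted from the annotated start, and Ccnb1 has CCAAT at -99 and -67 and TTTAAA at -42. Bub3 has the same elements, with CCAAT at -74 and -32 and the reverse of TTTGAA at -43, and is the member whose level differed least between barcodes with and without other members (below). A match is a description of letters, and binding was not measured here.

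Barcodes were kept with at least 2000 unique molecular identifiers (UMIs, each a captured RNA molecule), at least 500 genes and at most 10% mitochondrial UMIs, which left 12929 in WT and 14381 in Cgas KO with medians of 4943 and 4507 UMIs. Of the kept barcode sequences, 276 occurred in both libraries. Levels are in CPM, the standard unit of UMIs of a gene over all UMIs of the same barcodes, from 3' tags and not divided by gene length. The targeted gene Cgas stood at 4.49 CPM (WT, 337 UMIs) and 2.92 CPM (Cgas KO, 221 UMIs), a ratio of 0.651 (0.547 to 0.773). These tags need not lie in the deleted part, so these reads only partly check the label. Brackets hold exact 95% intervals, for counting error alone. Those of levels and of level ratios count each UMI as independent, so they leave out the spread between barcodes. With 1 library per genotype no difference between genotypes has a replicate check, and none was tested. No doublet caller was run; 9.003% of WT and 9.58% of Cgas KO kept barcodes had at least 2 productive beta chains.

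Detection of the mitotic genes split the barcodes into a large group with none or few and a small group with many. It was counted after each barcode had been thinned at random to 2000 UMIs, over 35 core members, leaving out Stmn1, Hmgb2, Bub3, Cks1b and Cks2, which are also known outside mitosis. Barcodes without any core member made up 70.6% (WT) and 68.3% (Cgas KO), 1 or 2 in 24.8% and 26.0%, and 3 or 4 in only 0.913% and 1.07%. Barcodes with at least 5 core members are called mitotic-gene-positive here, which is a range of a count and not a cell type. They numbered 474 in WT, 3.67% (3.35% to 4.005%), and 665 in Cgas KO, 4.62% (4.29% to 4.98%), with a median of 12 core members in each library and at most 23 and 25. At the threshold, 50 and 51 barcodes had exactly 4 core members and 43 and 37 had exactly 5.

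**Figure D1:**
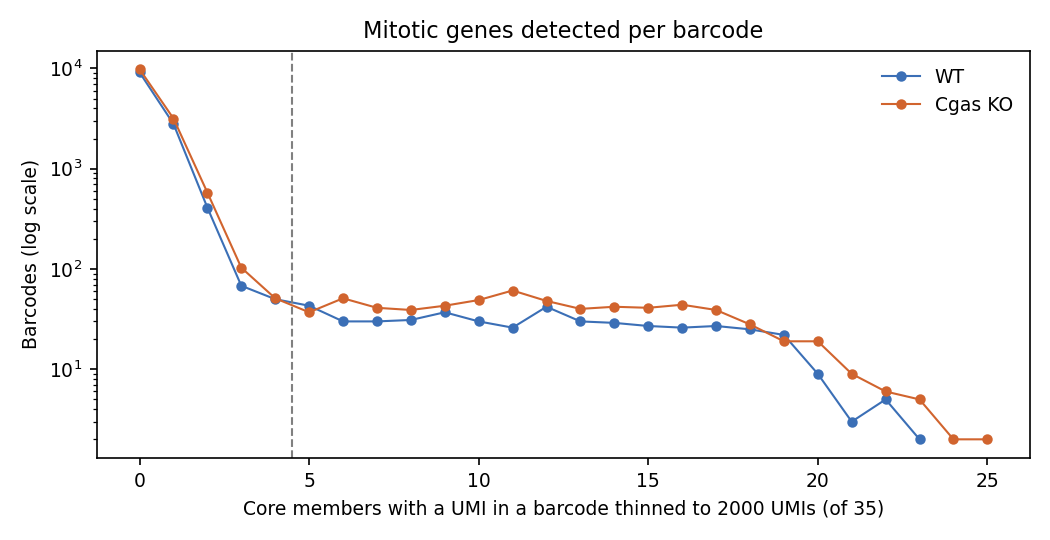
Number of kept barcodes (log scale) by how many of 35 core members had a UMI after thinning to 2000 UMIs, for the WT and Cgas KO libraries; the dashed line marks the threshold of 5. Counts fall from 9131 and 9817 barcodes at 0 to 50 and 51 at 4, and lie between 25 and 61 from 5 to 18 members.

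The mitotic-gene-positive barcodes held most of the UMIs of the mitotic genes. Core members define these barcodes, so the shares of member UMIs and the summed levels below are in large part set by that choice. They carried 63.7% of the UMIs of the 40 members in WT and 68.4% in Cgas KO, and 80.04% and 82.6% of those of the core members, but 7.78% and 9.63% of all UMIs. The summed level of the 40 members in them was 14754 CPM (WT) and 15103 CPM (Cgas KO), against 710 and 745 CPM in the other kept barcodes. They were also deep barcodes, with medians of 11643.5 and 10318 UMIs against 4861 and 4424 in the others, a depth 2.40 and 2.33 times as high. At least 2 productive beta chains were found in 8.23% (5.92% to 11.1%) of the WT and 12.2% (9.79% to 14.9%) of the Cgas KO mitotic-gene-positive barcodes, against 9.03% and 9.45% of the others. The part of doublets in these values was not tested.

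Each member was next compared between barcodes with at least 5 other core members and barcodes with no other core member, so that its own detection did not choose the barcodes. All 40 members were higher where the others were present, in both libraries, but by very different factors. Birc5, the survivin subunit of the chromosomal passenger complex, stood at 607 CPM against 1.72 CPM in WT and 645 against 1.85 in Cgas KO, with ratios of 353 (285 to 441) and 350 (284 to 436). Ube2c, the E2 enzyme of the APC, followed with 995 against 3.06 CPM and 1010 against 2.74 CPM, ratios of 325 and 369. Ccna2 (cyclin A) had ratios of 312 and 283, Aurkb, the passenger complex kinase, 293 and 252, and Kif2c, a microtubule-depolymerising kinesin, 306 and 224. These 5 had the highest ratios, averaged over both libraries. The ratios of Kif2c rest on 11 and 14 UMIs in barcodes with no other core member, with intervals of 169 to 617 and 132 to 414. The intervals of Bub1, next in order, were 150 to 407 and 162 to 416 and overlapped those of all 5.

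At the other end, Bub3 had the lowest ratios, 2.58 (2.46 to 2.71) in WT and 2.83 (2.71 to 2.96) in Cgas KO. Bub3 binds checkpoint kinases at kinetochores, and it stood at 149 and 136 CPM in barcodes without any other core member. Kif23, a motor of the central spindle, had ratios of 4.06 and 3.75, with 46.7 and 49.1 CPM where no other core member was found. Cks1b, a small partner of cyclin-dependent kinases, had ratios of 8.98 and 8.38. Its relative Cks2 reached 25.6 and 26.2. For Stmn1, which destabilises microtubules, the ratios were 10.0 and 9.40, and for Cenpa, the histone variant of centromeres, 13.4 and 13.2. Of these, Kif23 and Cenpa are core members, and they had a level of their own outside the mitotic-gene-positive barcodes.

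**Figure D2:**
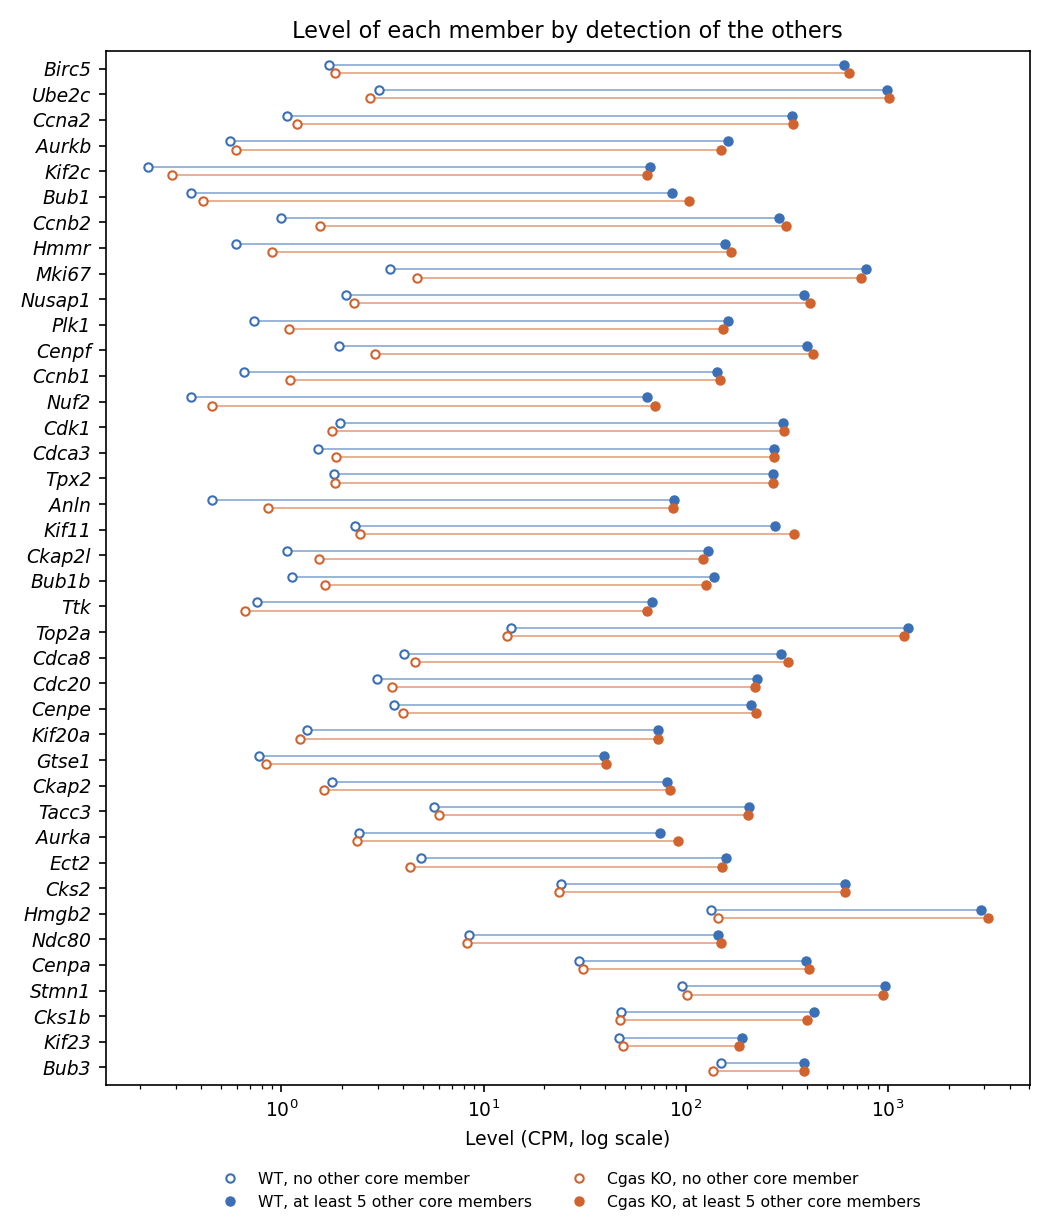
Level of each of the 40 members (CPM, log scale) in barcodes with no other core member (open points) and with at least 5 other core members (filled points), in WT and Cgas KO. The distance between the points is longest for Birc5 and Ube2c at the top and shortest for Kif23 and Bub3 at the bottom, in both libraries.

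By role, the cyclin and Cdk1 group went from at most 1.96 CPM to at least 143 CPM where the other members were detected. Ccnb1 went from 0.654 to 143 CPM in WT and from 1.11 to 147 CPM in Cgas KO, and Ccnb2, the other B-type cyclin, from 0.991 to 289 and from 1.56 to 312. Cdk1 itself went from 1.96 to 303 CPM and from 1.78 to 307. Among the checkpoint genes and kinases other than Bub3 and the passenger complex the ratios ran from Bub1 (239 and 253), which recruits checkpoint proteins to kinetochores, to Aurka (30.8 and 38.5), the centrosomal Aurora kinase. Bub1b, the relative of Bub1 in the checkpoint complex, had 122 and 77.1. The kinetochore genes spread widely, with Cenpf at 208 and 147, Nuf2 at 181 and 157, and its partner in the NDC80 complex, Ndc80, at 17.1 and 18.1. Of the chromatin proteins, Mki67, the Ki-67 antigen, had ratios of 226 and 157, Top2a, the topoisomerase that untangles sister chromatids, 92.5 and 92.2, and Hmgb2, which bends DNA, 21.6 and 21.6.

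Pairs of members were detected in the same barcodes far more often than independence would give. Of the 780 pairs, 704 in WT and 764 in Cgas KO had an expected count of at least 1, and every one of these was seen more often than expected. Observed over expected barcodes had a median of 12.4 (WT) and 11.7 (Cgas KO) over all these pairs, or 5.23 and 8.41 over pairs with an expected count of at least 5, 15.7 and 13.4 over pairs of core members, and 1.55 and 1.54 over the 10 pairs among the 5 members left out of the core. The highest was Ccnb1 with Hmmr, a spindle assembly factor, in both libraries: 41 barcodes against 1.43 expected in WT and 61 against 2.50 in Cgas KO, ratios of 28.6 and 24.4. Ccnb1 and Ccnb2 were found together in 55 barcodes against 1.98 expected and in 87 against 4.20. Birc5 and Aurkb, partners in one complex, shared 100 barcodes against 4.85 expected and 120 against 6.95. Mki67 was found in 340 of 734 WT barcodes with Top2a (46.3%) and in 476 of 965 in Cgas KO (49.3%).

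The 3 lowest ratios in each library involved Bub3. Bub3 and Hmgb2 shared 966 WT barcodes against 876 expected, a ratio of 1.102, and Bub3 and Stmn1 shared 851 Cgas KO barcodes against 762 expected, a ratio of 1.12. Kif20a and Kif23, both kinesins of the central spindle, were together in 29 barcodes against 8.84 expected in WT and in 26 against 13.9 in Cgas KO. Co-detection is a description across barcodes of 1 library, and barcodes differ in their content of all mitotic RNA. Most barcodes with any core member had exactly 1, 73.6% in WT and 69.4% in Cgas KO.

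Closely related members were not always the ones found together most. Cks1b and Cks2 had ratios of 2.77 and 2.89, the highest of the 10 pairs among the 5 members left out of the core. Members found in many barcodes, as Cks1b was in 9.92% and 10.6% after thinning, have a limit on how high this ratio can go. Aurka and Aurkb, the Aurora kinases of centrosome and centromere, had 11.6 and 15.5, and Ckap2 and Ckap2l 14.8 and 7.44. Bub1 and Bub1b reached 11.1 in Cgas KO, and in WT their expected count was under 1. Across the states defined below, core pairs summed to 6.45 and 4.50 times their expected number in Rag1+ barcodes, where mitotic genes were most frequent, and to between 8.58 and 12.1 times in the other 5 states. Of the barcodes with any core member, 29.9% and 36.4% were mitotic-gene-positive among Rag1+, 15.6% and 17.3% among S1pr1+, 12.5% and 14.2% among Itm2a+ S1pr1-, 14.2% and 12.7% among Foxp3+, and only 4.55% and 5.88% among Nr4a1/Egr-high and 4.69% and 7.18% among Cd8 lineage barcodes.

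The members were then placed along DNA replication with 45 replication genes that are no members, such as Pcna, Mcm2 to Mcm7, Rrm2 and Tyms. A barcode counted as replication-high with at least 8 of the 45 after thinning and as replication-low with at most 4; the minimum of 8 was chosen after the distribution had been seen. Replication-high barcodes made up 61.6% of the WT and 60% of the Cgas KO mitotic-gene-positive barcodes, against 2.87% and 3.13% of the others. Barcodes that were replication-high with at most 2 core members numbered 298 and 342, those both replication-high and mitotic-gene-positive 292 and 399, and those mitotic-gene-positive and replication-low 108 and 164. These steps are ordered by gene detection, not by time.

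Cenpa, Cdc20 and Ccnb1 leaned most to the replication-low step among mitotic-gene-positive barcodes. Ccnb1 stood at 71.7 CPM with replication genes high and 313 CPM with them low in WT, and at 81.04 and 276 CPM in Cgas KO, ratios of 0.229 (0.195 to 0.269) and 0.294 (0.256 to 0.338). Cdc20, the activator of the APC, went from 115 to 479 CPM and from 116 to 431 CPM. Cenpa went from 206 to 854 CPM and from 213 to 812 CPM. Ube2c, Ckap2, Cenpf and Ccnb2 followed with ratios between 0.306 and 0.393 over both libraries.

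**Figure D3:**
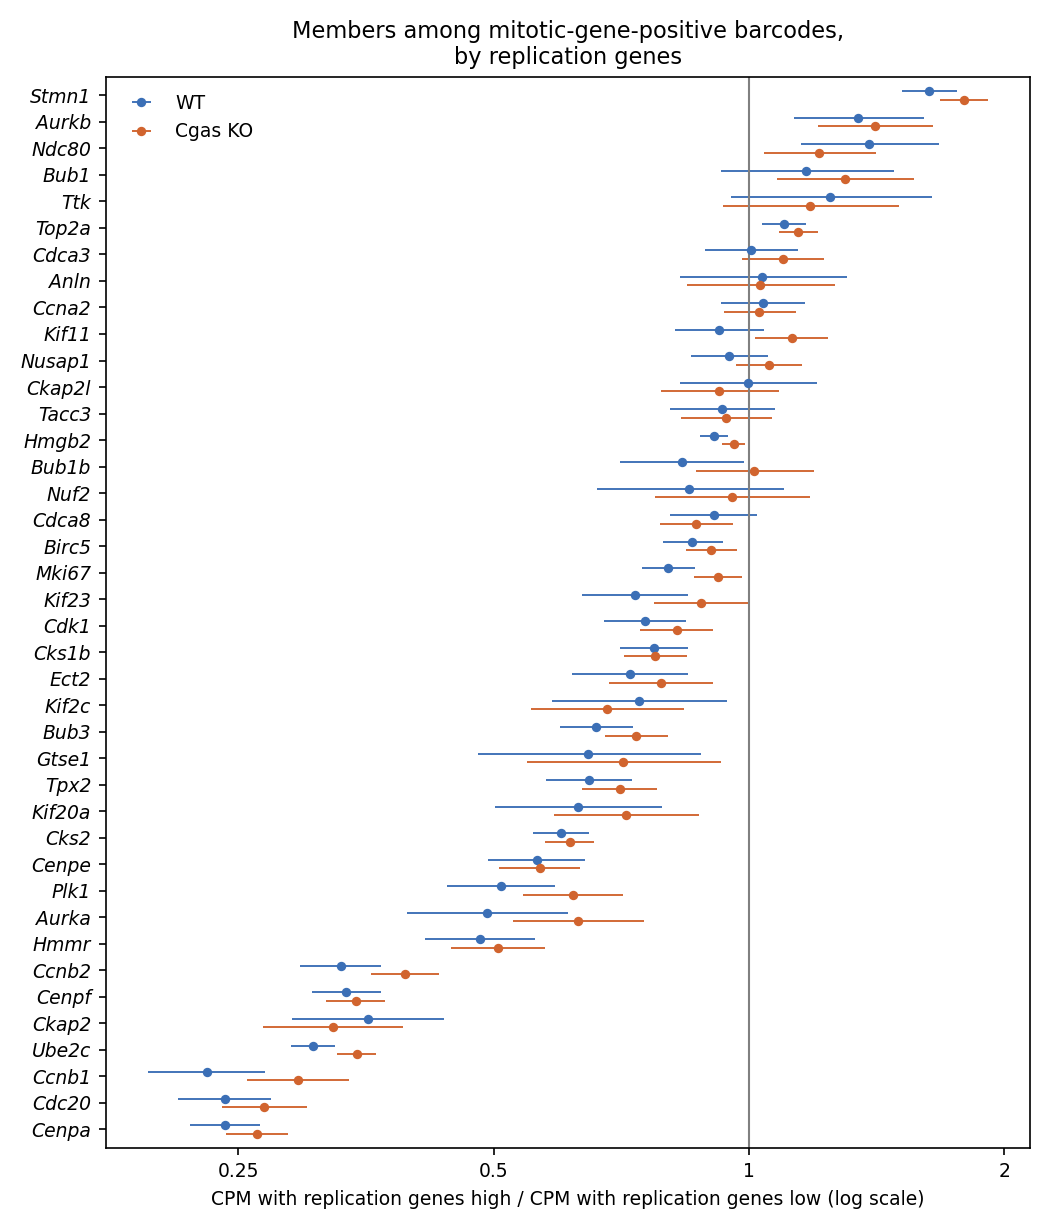
Ratio of the level (CPM) of each member in mitotic-gene-positive barcodes with replication genes high over those with replication genes low, on a log axis, in WT and Cgas KO; bars are exact 95% intervals for counting error. Cenpa, Cdc20 and Ccnb1 lie near 0.25 and Stmn1 lies above 1.6 in both libraries.

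A smaller set ran the other way. In both libraries 9 members, Top2a, Ccna2, Aurkb, Bub1, Anln, Cdca3, Ndc80, Ttk and Stmn1, had a higher level with replication genes high, and Bub1b, Nusap1 and Kif11 did so in Cgas KO. Stmn1 stood at 1086 CPM against 665 CPM in WT and 1094 against 611 in Cgas KO, ratios of 1.63 (1.52 to 1.76) and 1.79 (1.68 to 1.91). Aurkb had ratios of 1.35 (1.13 to 1.61) and 1.41 (1.205 to 1.65), and Top2a 1.099 (1.03 to 1.17) and 1.14 (1.09 to 1.21). The intervals of Ccna2, Anln, Cdca3 and Ttk included 1 in each library. With a minimum of 12 in place of 8 replication genes, 6 members in each library remained above 1, among them Stmn1, Aurkb and Top2a.

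In barcodes with replication genes high and few core members, Stmn1, Hmgb2 and Cks1b, left out of the core, stood higher than in barcodes with neither, and Bub3 hardly did, with 159 and 138 CPM against 148 and 138 CPM. Stmn1 stood at 396 and 421 CPM there, against 87.7 and 93.0 CPM in barcodes with neither. Hmgb2 was at 612 and 796 CPM against 124 and 133 CPM, and Cks1b at 156 and 163 against 43.9 and 43.9. Top2a was at 153 and 163 CPM, against 10.2 and 10.5. Ube2c, by contrast, was at 4.26 and 10.5 CPM in these barcodes and at 1845 and 1750 CPM in the replication-low, mitotic-gene-positive ones.

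Maturation states were read from single genes: Foxp3+, then Rag1+, then Cd8 lineage (Cd8a and Cd8b1 present, Cd4 absent), then Nr4a1/Egr-high (the top 10% by the summed share of Nr4a1, Egr1, Egr2 and Egr3), then S1pr1+, then Itm2a+ S1pr1-, each barcode taking the earliest state that applied. Other markers followed these names in part. Summed, 8 double-positive genes reached 3956 and 3996 CPM in Rag1+ barcodes and at most 1357 CPM in the other states, although Elovl6 among them was lowest in Rag1+ barcodes. Treg genes (7) were highest in Foxp3+ barcodes at 2137 and 2488 CPM. Mature, TCR-signalled and Cd8 lists were highest in S1pr1+, Nr4a1/Egr-high and Cd8 lineage barcodes. Semi-mature genes (7) summed to 1792 and 1937 CPM in Itm2a+ S1pr1- barcodes, and stood higher in Rag1+, Cd8 lineage and Nr4a1/Egr-high barcodes (2268 and 2417 CPM in the last). Rag1+ and Cd8 lineage barcodes go in part against the CD4+CCR7+ label: Cd4 is absent from the Cd8 lineage by its definition, and Rag1+ barcodes had 1009 and 1033 CPM of Cd8a and 271 and 282 CPM of Ccr7, beside 415 and 381 CPM of Cd4, the highest of the states. Ccr7 stood at 481 and 624 CPM in Cd8 lineage barcodes. Each state was compared with S1pr1+ barcodes, the most mature, with edgeR's quasi-likelihood test on UMIs summed per library and state and Benjamini-Hochberg adjustment over 12591 genes. The WT and Cgas KO libraries, which also differ in genotype, stand as the replicates of a state. The library was held as a term, so the overall difference between the 2 libraries is taken out. The p-values measure how far the differences between states vary between these libraries, with the same estimate of that spread shared by all states.

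All 40 members were higher in Rag1+ than in S1pr1+ barcodes, where 23.8% of all genes were called higher and 21.2% lower. Their median log2 ratio was 1.46, against 0.0067 over all genes tested. Ccnb1 stood at 69.1 CPM (WT) and 88.5 CPM (Cgas KO) in Rag1+ barcodes, against 12.2 and 15.2 CPM in S1pr1+ barcodes, with no overlap between the states. Its log2 ratio was 2.36 ± 0.12 (SE; edgeR adjusted p = 2.32e-13), the largest of the members, followed by Ccnb2 at 2.11 ± 0.11 (edgeR adjusted p = 2.34e-13). Bub3 changed least, at 0.50 ± 0.060 (edgeR adjusted p = 2.80e-07), with 249 and 257 CPM against 160 and 159. Hmgb2 stood at 1151 and 1768 CPM in Rag1+ barcodes, against 417 and 471 CPM in S1pr1+ barcodes, Top2a at 257 and 375 CPM against 134 and 145, and Mki67 at 180 and 263 CPM against 80.5 and 86.9. In all 3 the Cgas KO library was the higher one within Rag1+ barcodes. With states called on thinned barcodes 37 members were higher and 0 lower, against 17.8% and 19.6% of 13008 genes.

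In Nr4a1/Egr-high barcodes, which carry the immediate response to T cell receptor signals, 39 of 40 members were lower than in S1pr1+ barcodes, against 16.6% of all genes lower, 15.3% higher and 31.9% in either direction. The median log2 ratio was -1.50, and -0.70 with states called on thinned barcodes. Ube2c stood at 16.5 and 23.8 CPM against 95.3 and 119 CPM, and fell by 2.47 ± 0.096 on the log2 scale (SE; edgeR adjusted p = 5.89e-15). Kif23 was the member that did not pass, at 37.5 and 51.3 CPM against 41.6 and 46.7. With states called on thinned barcodes 30 members were lower and 2 (Kif23 and Cks1b) higher, against 15.5% and 15.8% of genes.

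Foxp3+ barcodes differed less: 12 of 40 members were lower and 0 higher than in S1pr1+ barcodes, against 5.15% of all genes lower and 6.93% higher; 27 had an unadjusted p under 0.05, and DESeq2 called 7 lower and 0 higher, against 3.07% and 6.16% of genes. Ube2c stood at 51.9 and 42.5 CPM, and fell by 1.12 ± 0.10 on the log2 scale (SE; edgeR adjusted p = 4.99e-08), and Aurka stood at 3.81 and 5.25 CPM against 9.01 and 10.5. This count ranged from 5 lower members on thinned barcodes, where 4.11% of genes were lower and 5.24% higher, or 5 lower and 1 higher (Kif20a) without barcodes with at least 2 beta chains, where 5.28% were lower and 7.01% higher, to 25 lower without the filter on low counts, where 5.48% were lower and 3.44% higher.

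Against S1pr1+ barcodes, the direction in Itm2a+ S1pr1- and in Cd8 lineage barcodes depended on how deep the barcodes were when the state was called. With all UMIs, 14 members were lower and 3 higher (Kif23, Cks1b and Stmn1) in Itm2a+ S1pr1- barcodes, where 20.6% of genes were lower and 21.5% higher, and 37 were lower and 1 higher (Kif23) in Cd8 lineage barcodes, where 21.7% were lower and 20.1% higher. With states called on barcodes thinned to 2000 UMIs, 24 members were higher and 1 lower in Itm2a+ S1pr1- barcodes, against 19.6% of genes higher and 21% lower, and 29 were higher and 0 lower in Cd8 lineage barcodes, against 20.1% and 20.4%; 30 members had an unadjusted p under 0.05 there. An S1pr1+ call needs 1 UMI and a Cd8 lineage call the absence of Cd4, and mitotic-gene-positive barcodes were more than 2 times as deep as the others. No direction is therefore given for the list in these 2 states. Kif23, Cks1b and Stmn1 were higher in Itm2a+ S1pr1- barcodes under both calls. Kif23 stood at 69.5 and 75.7 CPM against 41.6 and 46.7 CPM in S1pr1+ barcodes, a log2 ratio of 0.65 ± 0.059 (SE; edgeR adjusted p = 6.26e-09) that was 0.92 with thinned calls, and Cks1b at 107 and 110 CPM against 68.8 and 70.5 CPM, 0.57 ± 0.038 (SE; edgeR adjusted p = 4.73e-11) and 1.01. Kif23 was higher also in Cd8 lineage barcodes, at 87.0 and 74.6 CPM, by 0.80 ± 0.082 (SE; edgeR adjusted p = 4.70e-08) and 1.07. Cenpa was lower in Itm2a+ S1pr1- barcodes under both calls, falling by 0.58 ± 0.049 (SE; edgeR adjusted p = 2.03e-09) and 0.34.

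The share of mitotic-gene-positive barcodes showed the same dependence. It was highest in Rag1+ barcodes, 10.9% (8.42% to 13.9%) in WT and 18.03% (14.7% to 21.7%) in Cgas KO, and lowest in Nr4a1/Egr-high barcodes, 1.08% (0.560% to 1.88%) and 1.67% (1.05% to 2.52%), with all UMIs. Itm2a+ S1pr1- barcodes had 3.89% and 4.87%, S1pr1+ barcodes 4.27% and 4.80% and Foxp3+ barcodes 3.502% and 3.70%. With thinned calls the Rag1+ share was 5.46% (3.45% to 8.15%) and 12.9% (9.45% to 17.0%). The Itm2a+ S1pr1- share was 4.06% (3.52% to 4.66%) and 4.78% (4.23% to 5.38%), so in WT its interval overlapped that of Rag1+. Barcodes in none of the 6 states had 5.01% (4.23% to 5.90%) and 6.89% (5.99% to 7.87%). The S1pr1+ share was 2.54% and 2.99% and the Cd8 lineage share 3.36% and 4.77%, instead of 1.51% and 2.29%. Nr4a1/Egr-high barcodes then had 1.59% and 1.73% and Foxp3+ barcodes 2.33% and 1.40%, so that Foxp3+ was lowest in Cgas KO. Most mitotic-gene-positive barcodes lay outside Rag1+ under both calls. With all UMIs, 40.5% and 42.0% were Itm2a+ S1pr1- and 33.5% and 30.5% were S1pr1+. Under thinned calls the Itm2a+ S1pr1- part was 40.9% and 39.4%, but the S1pr1+ part only 12.2% and 12.03%. A further 29.1% and 30.1% then fell in none of the 6 states.

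**Figure D4:**
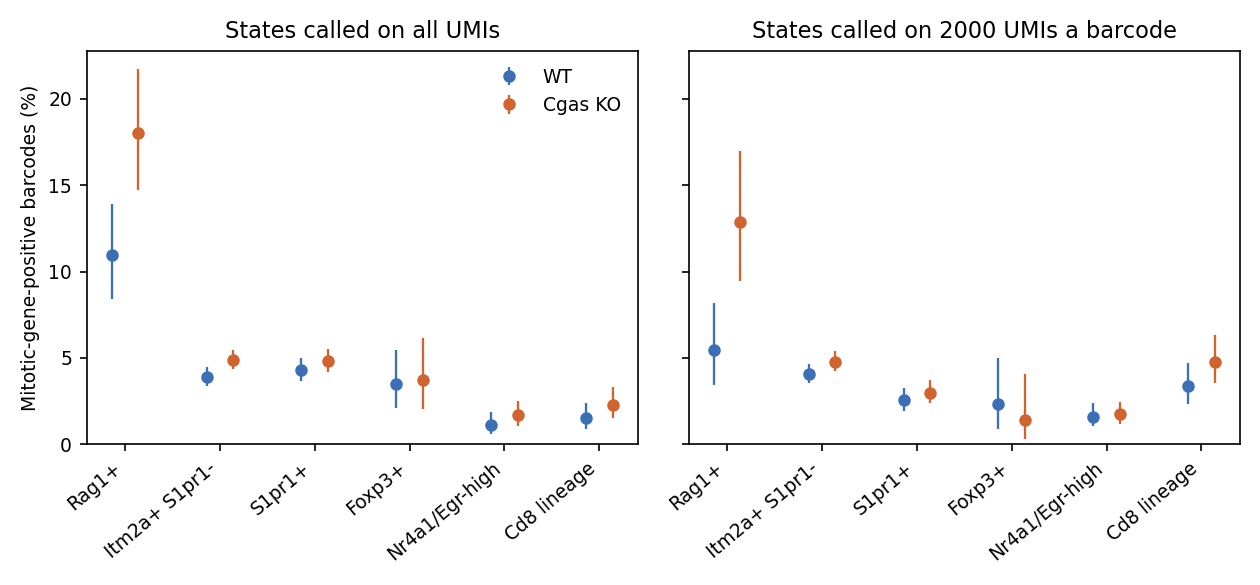
Share of mitotic-gene-positive barcodes (%) in 6 states of the WT and Cgas KO libraries, with exact 95% binomial intervals, for states called on all UMIs (left) and on 2000 UMIs a barcode (right). Rag1+ barcodes are highest in both panels, though on the right the WT intervals of Rag1+ and Itm2a+ S1pr1- overlap. S1pr1+ and Cd8 lineage barcodes change order between the panels.

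Between genotypes, the mitotic genes stood higher in the Cgas KO library, and the share of mitotic-gene-positive barcodes was higher there too. Levels within these barcodes differed little, but the same members chose the barcodes, which in part sets their levels there. Over all kept barcodes, 20 of 40 members exceeded WT by at least 1.2-fold and 0 fell short of it by as much, against 6.07% and 5.83% of 13266 genes with at least 100 UMIs; there is no test with 1 library each. The median log2 ratio of the members was 0.25, against 0.0020 over all genes. The summed level was 1803 CPM (WT) and 2128 CPM (Cgas KO), a ratio of 1.18 (1.17 to 1.19). Kif11, the motor that pushes spindle poles apart, stood at 24.9 CPM (WT) and 37.1 CPM (Cgas KO), a ratio of 1.49 (1.40 to 1.58). Bub1 stood at 7.48 and 10.99 CPM, a ratio of 1.47 (1.32 to 1.64), and Aurka at 8.19 and 11.1 CPM, a ratio of 1.36 (1.22 to 1.51).

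The other 17 members past this fold came from 7 of the 8 role groups, all but the mitotic kinases and checkpoint genes, to which Bub1 and Aurka belong. Among cyclins and Cdk1, Ccnb2 had a ratio of 1.33, Ccnb1 of 1.31, Ccna2 of 1.23 and Cdk1 of 1.22. Birc5 and Cdca8, both subunits of the passenger complex, had ratios of 1.30 and 1.30, and the kinetochore genes Cenpf, Nuf2 and Cenpe had 1.31, 1.30 and 1.25. Of the spindle genes, Hmmr had 1.32, Nusap1, a microtubule bundling protein, 1.32, Ckap2 1.22 and Tpx2, which activates Aurka on the spindle, 1.2002. Ube2c had 1.25, Hmgb2 1.24, Anln 1.23 and Cdca3 1.22. Among the 20 members under the fold, Mki67 stood at 67.1 and 79.5 CPM, a ratio of 1.18, Top2a at 117 and 135 CPM, 1.16, Cenpa at 58.7 and 69.5 CPM, 1.18, and Cks2 at 72.8 and 83.9 CPM, 1.15. Cdc20 and the Polo-like kinase gene Plk1 each had 1.18, Bub1b 1.16 and Ect2, a cytokinesis gene, 1.12. The lowest ratios were those of Stmn1 (1.11), Kif23 (1.07), Cks1b (1.05) and Bub3, the single member below 1 at 0.970 (0.946 to 0.995). Bub3, Kif23, Cks1b and Stmn1 were also the 4 members least specific to barcodes with other core members.

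The share of mitotic-gene-positive barcodes was 1.26 (1.12 to 1.42) times as high in Cgas KO as in WT. Within these barcodes 3 of 40 members, Kif11 (1.24), Bub1 (1.22) and Aurka (1.22), passed 1.2-fold upwards and 0 downwards, against 7.46% and 7.54% of 8951 genes. The median log2 ratio there was 0.0079, and the summed level differed by a ratio of 1.02 (1.01 to 1.03). The members themselves chose these barcodes. These values therefore cannot show whether the genotypes differ in the number of such barcodes or in the levels within them. Kif11 stood at 276 CPM (WT) and 342 CPM (Cgas KO) in mitotic-gene-positive barcodes, and at 3.69 and 4.60 CPM in the other kept barcodes, a ratio of 1.25 (1.05 to 1.48). In the other kept barcodes 9 of 39 members passed 1.2-fold upwards and 0 downwards, against 5.17% and 5.80% of 13025 genes, and the summed level was 710 and 745 CPM, a ratio of 1.05 (1.04 to 1.06). In each of the 6 states Kif11 was also higher in Cgas KO, with ratios from 1.31 (0.964 to 1.79) in Cd8 lineage to 1.77 in Nr4a1/Egr-high barcodes.

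**Figure D5:**
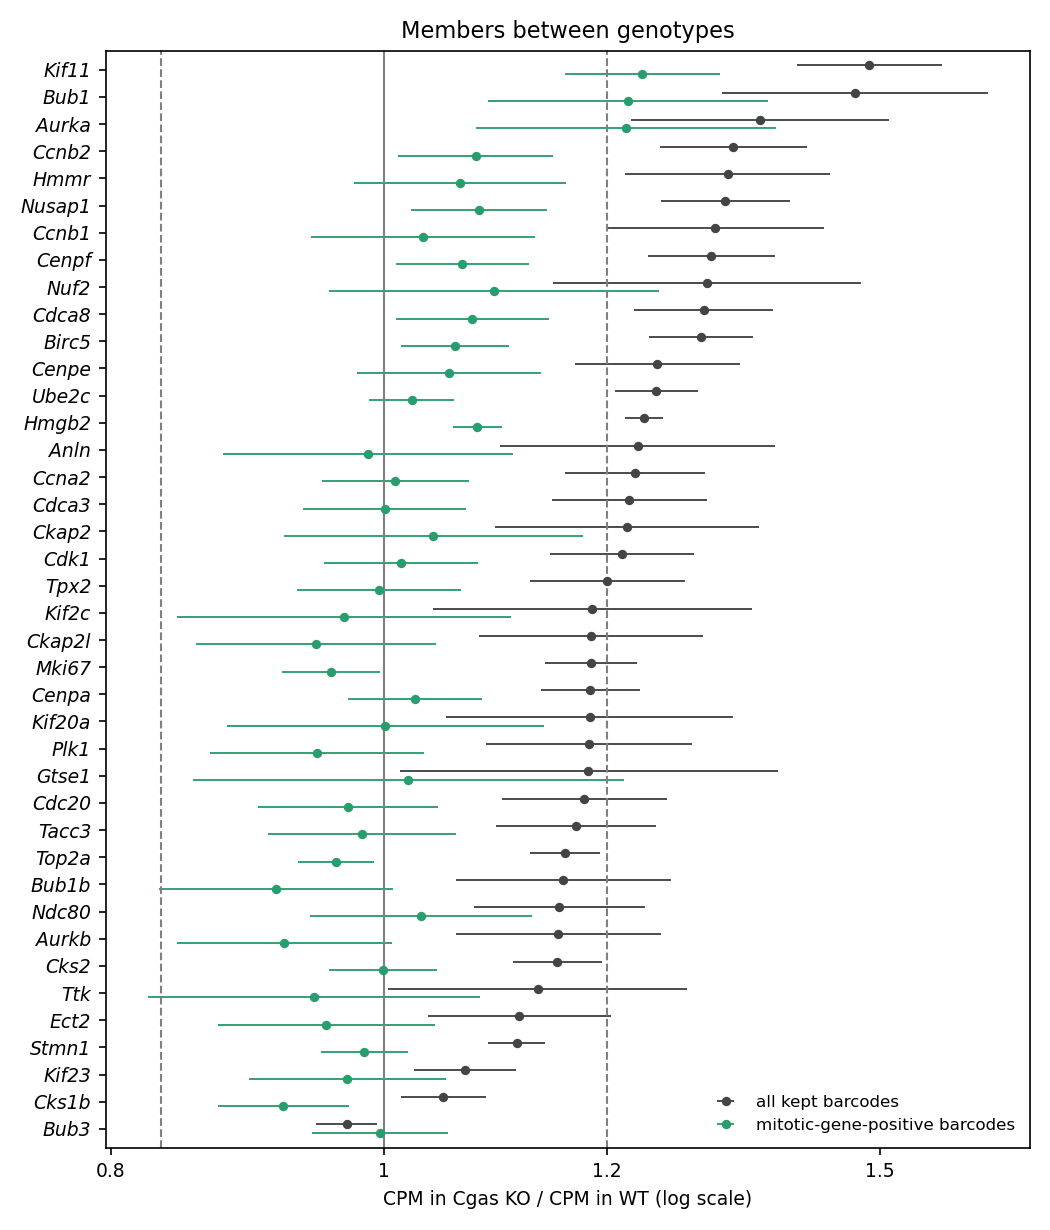
Ratio of the level (CPM) of each member in Cgas KO over WT, on a log axis, over all kept barcodes and within mitotic-gene-positive barcodes, with exact 95% intervals for counting error; dashed lines mark a 1.2-fold difference. Over all barcodes 20 members lie at or beyond 1.2, and within mitotic-gene-positive barcodes only Kif11, Bub1 and Aurka do.

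Barcodes with at least 2 beta chains bear on these values. Without them 13 members in place of 20 passed this fold upwards, against 5.24% of genes, 0 downwards, against 6.05%, and the ratio of the mitotic-gene-positive share was 1.21. With barcodes of at least 3000 UMIs 30 members were higher, against 6.27% of genes, and 0 lower, against 6.12%, and that ratio was 1.36. No member reached 1.5-fold over all kept barcodes with all UMIs; the highest ratio was 1.55 with at least 3000 UMIs and 1.82 after thinning.

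By state, the genotype ratio of the summed 40 members was largest in Rag1+ barcodes, and that of the 35 core members in Nr4a1/Egr-high barcodes, at 1.503 (1.42 to 1.59) against 1.43 (1.39 to 1.47) in Rag1+. These intervals count UMIs and not barcodes. Nr4a1/Egr-high barcodes held only 12 and 22 mitotic-gene-positive ones, with a share ratio of 1.55 (0.733 to 3.43). The order of the states by this ratio is therefore uncertain. In Rag1+ barcodes 34 of 38 members with at least 100 UMIs passed the fold upwards, against 12.9% of genes, and 0 downwards, against 14.4%; the summed level was 4967 CPM (WT) and 6957 CPM (Cgas KO), a ratio of 1.40 (1.37 to 1.43). The share of mitotic-gene-positive barcodes among Rag1+ barcodes had a ratio of 1.65 (1.17 to 2.34), from 58 of 530 and 88 of 488 barcodes, and of 2.36 (1.38 to 4.15) with thinned calls. Rag1+ barcodes were deeper in Cgas KO, with medians of 3488.5 (WT) and 4031.5 UMIs, and in them 7 mature-stage genes summed to 2247 and 1883 CPM and 7 Cd8 lineage genes to 133 and 61.6 CPM; the part of these differences in the ratios was not tested. Of Kif11, Bub1 and Aurka, Bub1 had the highest Rag1+ ratio, with 16.1 and 41.1 CPM in Rag1+ barcodes, a ratio of 2.55 (1.80 to 3.66). In Itm2a+ S1pr1- barcodes 20 of 40 members were higher, against 5.99% of genes, and 0 lower, with a share ratio of 1.25 (1.04 to 1.51). In S1pr1+ barcodes 10 of 40 were higher, against 5.97%, and 0 lower, against 5.36%, with a share ratio of 1.13 (0.910 to 1.39). In Nr4a1/Egr-high barcodes 18 of 22 members were higher, against 7.14%, and 0 lower, against 7.90%, and in Cd8 lineage barcodes 13 of 26 were higher, against 7.99%, and 0 lower, against 7.91%; the intervals of their share ratios included 1. Foxp3+ barcodes had 3 of 23 members higher (Kif11, Tacc3 and Cdca8), against 9.76%, and 2 lower (Ube2c and Ndc80), against 10.9%, with 18 and 14 mitotic-gene-positive barcodes. Differences in the ratio between states were not tested.

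Along replication, barcodes with replication genes high and few core members were about equally frequent, 2.30% (WT) and 2.38% (Cgas KO), a ratio of 1.03 (0.881 to 1.21). Those with replication genes high and mitotic genes present were 2.26% and 2.77%, a ratio of 1.23 (1.05 to 1.43). Those with replication genes low and mitotic genes present were 0.835% and 1.14%, a ratio of 1.37 (1.06 to 1.76). These 3 intervals overlap.

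Other cell-cycle lists, chosen by function, moved as follows. Over all kept barcodes, where 6.07% of genes passed 1.2-fold upwards and 5.83% downwards, the counts were these. Of 51 other mitotic genes, such as Prc1, which bundles the central spindle, 21 passed upwards and 0 downwards. Within mitotic-gene-positive barcodes 1 of these 51 was higher and 0 lower, against 7.46% and 7.54% of genes. Of the 45 replication genes 4 were higher and 0 lower over all kept barcodes, with a median log2 ratio of 0.10. In Rag1+ barcodes 27 of 40 with at least 100 UMIs were higher, against 12.9% of genes, and 0 lower, against 14.4%. The 45 summed there to a ratio of 1.32 (1.28 to 1.36), so the genotype difference in Rag1+ was not limited to mitotic genes. In Cd8 lineage barcodes 16 of 38 were higher and in Nr4a1/Egr-high 10 of 34, with 0 lower. S1pr1+ barcodes had 8 of 45 and Itm2a+ S1pr1- barcodes 3 of 45 higher, with 0 lower. Foxp3+ barcodes had 3 of 30 higher and 2 lower. Of 19 measured CDK inhibitor and quiescence genes 3 were higher and 0 lower over all kept barcodes. Of 9 cyclin D, cyclin-dependent kinase and related genes of early cycle entry 1 was higher and 0 lower there. In Rag1+ against S1pr1+ barcodes, where 23.8% of all genes were higher and 21.2% lower, 42 of 45 replication genes were higher and 0 lower. Other mitotic genes gave 49 of 51 higher and 1 lower. Prc1 had a log2 ratio of 1.33 (edgeR adjusted p = 3.42e-10) and Pcna, the replication clamp, 0.79 (edgeR adjusted p = 1.00e-08). Of the 19 CDK inhibitor and quiescence genes 6 were higher and 6 lower there. Klf2, a quiescence factor of mature T cells, fell by 1.87 on the log2 scale (edgeR adjusted p = 2.18e-19), while Cdkn1b, an inhibitor of cyclin-dependent kinases, rose by 0.33 (edgeR adjusted p = 5.52e-05) and Btg2 by 0.32 (edgeR adjusted p = 8.85e-06).

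Ranked by level in mitotic-gene-positive over other kept barcodes, which the core members themselves define, 20 of the 40 members stood among the top 50 and 36 among the top 200 of 13266 genes. The non-members at the top were Pif1, Pimreg, Depdc1a, Mxd3, Aspm, Kif14, Iqgap3, Kif18b, Espl1 and Cdc25c. Pif1, a helicase, stood at 42.5 CPM (WT) and 43.4 CPM (Cgas KO) in mitotic-gene-positive barcodes, against 0.174 and 0.381 CPM in the others. Aspm, a spindle pole protein, stood at 116 and 116 CPM against 0.954 and 1.02 CPM. Cdc25c, the phosphatase that activates Cdk1, stood at 26.0 and 28.4 CPM against 0.318 and 0.307 CPM.

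The mitotic-gene-positive barcodes kept the T-lineage genes of the sort. A productive beta chain was found in 88.0% and 86.8% of them, against 92.2% and 93.2% of the others, Ccr7 stood at 526 and 567 CPM against 625 and 737, and Cd4 at 212 and 211 CPM against 260 and 267. The 8 double-positive genes summed to 778 and 887 CPM against 528 and 500 CPM in the others, and 7 mature-stage genes to 4130 and 4132 CPM against 4201 and 4273. Macrophage markers summed to at most 0.686 CPM, with C1qa and C1qb at 0 in both libraries. The summed dendritic list was 159 and 149 CPM against 177 and 161, with Itgax, Siglech and Xcr1 at 0. Gamma-delta markers summed to 21.2 and 17.3 CPM against 8.70 and 8.83 CPM, and NK and innate markers to 8.05 and 6.45 against 2.43 and 3.03; their part in the results was not tested.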

How the data were processed

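Deposited for gene expression are unfiltered UMI counts by gene and barcode. Their file headers name Cell Ranger 8.0.1, whereas the tools listed by the submitters' processing notes are Cell Ranger 7.0 and Seurat 5.1.0 with the mm10 build, a conflict left unsettled. The deposited T cell receptor tables also give UMI counts and were used for beta chains. Counts were summed over barcodes and divided by the total of those barcodes to give CPM. Intervals are exact Poisson for CPM, Clopper-Pearson for shares and conditional for ratios. Kept barcodes held 88.5% of the WT and 86.6% of the Cgas KO UMIs. States were fitted in edgeR 4.0.16 (R 4.3.3, library and state as terms, TMM, filterByExpr, 12 sums). The fit was checked on simulated data with the same spread for every gene. For Rag1+ against S1pr1+, 31.3% of 1.5-fold, 70.1% of 2-fold and 92.4% of 4-fold changes were recovered among 12364 genes. SE is the size of the log2 ratio over the root of F. DESeq2 1.42.0, no filter, 2 UMIs per state gene, thinned calls and leaving out barcodes with at least 2 beta chains were alternatives. Members and lists were chosen with earlier results of these data known. Named were the 3 most abundant members per role, those past 1.2-fold, the 5 most and least specific, 5 pairs of relatives, the extremes along replication, the 10 leading non-members and up to 4 genes per list; a few further members are named where a count singles them out.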

Additional observations from a re-analysis of the deposited data

Results flagged for a closer look

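Barcodes of at least 20 and under 200 UMIs, which stand for free RNA and enter none of the comparisons above, held mitotic RNA. The 40 members summed to 2199 CPM in WT (2165 to 2233) and 2280 CPM in Cgas KO (2247 to 2314) there, against 1803 and 2128 CPM in kept barcodes. In WT 38 of the 40 members and in Cgas KO 27 stood higher in these barcodes than in kept ones; Mki67 was at 93.1 and 121 CPM against 67.1 and 79.5 CPM. Kept barcodes with no other core member had Ube2c at 3.06 and 2.74 CPM, against 77.5 and 64.0 CPM in free RNA. Those barcodes were chosen for lacking other members, so their lower level says nothing about free RNA in them. The part of free RNA in their low levels, over which the ratios of each member above were taken, was not tested. The part of free RNA in the barcodes with exactly 1 core member was not tested.

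The summed level of the 40 members in Itm2a+ S1pr1- over S1pr1+ barcodes had opposite signs in the 2 genotypes, with log2 ratios of -0.045 in WT and 0.022 in Cgas KO, and the ratio of Cgas KO over WT in Foxp3+ barcodes was 0.974 (0.933 to 1.02) while it was above 1 in the other 5 states. Neither difference was tested, since each rests on 1 library per genotype.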

How the results depend on the processing

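No paired analysis was possible between genotypes, because each has 1 expression library, while the state fits hold the library as a term; leaving a library out was likewise not run, since no residual degrees of freedom would remain. Against S1pr1+ barcodes, calling states on barcodes thinned to 2000 UMIs gave 25 called members in Itm2a+ S1pr1- (24 higher) in place of 17 (14 lower) and 29 in Cd8 lineage (29 higher) in place of 38 (37 lower). The same calls gave positive log2 ratios of 0.17 for Ube2c in Itm2a+ S1pr1-, 0.31 for Cenpf and 0.76 for Ube2c in Cd8 lineage, and 0.011 for Bub3 and 0.37 for Kif23 in Nr4a1/Egr-high barcodes. DESeq2 called 7 members in Itm2a+ S1pr1- and 7 in Foxp3+ barcodes; Foxp3+ gave 25 without a filter, 5 on thinned calls and 6 without barcodes with at least 2 beta chains, against 12. The Rag1+ and Nr4a1/Egr-high counts stayed within 1.5 times their value and kept their direction under all 5 alternatives. Members at least 1.2-fold higher in Cgas KO numbered 13 without barcodes with at least 2 beta chains and 0 at a fold of 1.5, against 20. The genotype ratio of 39 members was above 1 with TMM, with at least 3000 UMIs and without those barcodes, and of 37 after thinning. The ratio of mitotic-gene-positive shares ran from 1.21 to 1.36 over 6 alternatives. The median co-detection ratio in WT was 5.23 over pairs with an expected count of at least 5, against 12.4. Depth limits the small states: 17 of 40 members had under 100 UMIs in Foxp3+ and 18 in Nr4a1/Egr-high barcodes. Alternatives for single members and for states were partly added after seeing the data.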

Other observations

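Cgas, the targeted gene, was higher where mitotic genes were present. It stood at 19.4 CPM in mitotic-gene-positive and 3.24 CPM in other WT barcodes, from 113 and 224 UMIs, and at 9.06 and 2.27 CPM in Cgas KO, from 66 and 155 UMIs. S1pr1, the egress receptor, was lower in mitotic-gene-positive barcodes, at 77.6 and 79.9 CPM against 142 and 163 CPM. Nr4a1 stood at 189 and 228 CPM there against 414 and 436 CPM.

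Erythroid genes (Hbb-bs, Hba-a1 and Alas2) summed to 184 CPM in S1pr1+ barcodes of Cgas KO, against 2.15 CPM in those of WT and at most 5.86 CPM in the other 5 states of either library.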
